A study of Homo sapiens with 18 samples.

Results

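The potassium channel genes are 91 protein-coding genes whose symbols begin with KCNA to KCNH, KCNJ, KCNK, KCNMA, KCNMB, KCNN, KCNQ, KCNS, KCNT or KCNV, among 58051 genes of the deposited tables, of which 19737 are protein-coding in GENCODE 29. They were chosen by symbol, with no use of measured values. RNA sequencing was done on NCI-H460, a human cell line from a large cell lung cancer that the labels describe as epithelial, adherent and wild type. Parental cells were compared with resistant #1 and resistant #2, a pair of populations that the labels call resistant to ATRA (all-trans retinoic acid) and DAC (decitabine). They are called resistant 1 and resistant 2 below. How they were derived, and whether either is 1 clone, is not given in the sources used here. Each population received DMSO as the solvent (0.7% v/v) or 2 µM ATRA plus DAC, whose dose the labels state as 50 µM. Treatment began 24 h after seeding and RNA was taken at 72 h, from 3 biological replicates in each of the 6 groups.

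Potassium channels let potassium leave the cell along its gradient and set the resting membrane potential. Voltage-gated channels, among them the KCNQ, EAG (ether-a-go-go) and ERG families, open on depolarization, calcium-activated channels open when cytosolic calcium rises, inward rectifiers pass current best near rest, and two-pore domain channels carry background currents. Beta and silent subunits change the gating or traffic of the pore subunits. In tumour cells these channels are studied for their part in proliferation, volume control and migration. DAC is incorporated into DNA and depletes the enzymes that methylate cytosine in CG dinucleotides, and ATRA activates retinoic acid receptors.

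Because DAC acts on CG methylation, promoters of members that differ in CG content and in their behaviour are shown. They run from 250 to 51 bases before the RefSeq start of the gene (GRCh38.p14), 5′ to 3′ on the strand of the gene, with CG in capitals. None holds a base of a GENCODE 29 exon of the same gene, and exons of other genes were not checked. KCNH1 had the largest difference of all members between resistant and parental cells, and KCND3 was higher in both resistant populations. KCNK3 rose with ATRA and DAC in all 3 populations. KCNK10 rose and KCNK2 fell in parental cells, and their means moved the same way in the resistant populations.
KCNH1 (chr1:211134199-211134398, minus strand): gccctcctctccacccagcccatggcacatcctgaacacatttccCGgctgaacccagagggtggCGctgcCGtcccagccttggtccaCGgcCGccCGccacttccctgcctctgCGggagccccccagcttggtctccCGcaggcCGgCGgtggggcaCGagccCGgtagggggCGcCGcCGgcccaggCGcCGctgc
KCND3 (chr1:111989719-111989918, minus strand): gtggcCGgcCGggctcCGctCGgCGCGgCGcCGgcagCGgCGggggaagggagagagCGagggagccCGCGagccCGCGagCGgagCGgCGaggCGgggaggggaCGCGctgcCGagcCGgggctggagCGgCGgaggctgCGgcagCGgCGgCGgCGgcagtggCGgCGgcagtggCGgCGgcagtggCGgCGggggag
KCNK3 (chr2:26692472-26692671, plus strand): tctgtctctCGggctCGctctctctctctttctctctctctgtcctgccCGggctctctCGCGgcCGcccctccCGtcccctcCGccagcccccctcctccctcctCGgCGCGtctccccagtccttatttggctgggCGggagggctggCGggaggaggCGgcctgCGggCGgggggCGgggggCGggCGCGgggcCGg
KCNK10 (chr14:88326963-88327162, minus strand): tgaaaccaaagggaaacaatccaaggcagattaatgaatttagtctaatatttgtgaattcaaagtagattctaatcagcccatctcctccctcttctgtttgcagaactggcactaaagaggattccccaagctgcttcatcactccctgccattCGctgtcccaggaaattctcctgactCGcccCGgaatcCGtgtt
KCNK2 (chr1:215005292-215005491, plus strand): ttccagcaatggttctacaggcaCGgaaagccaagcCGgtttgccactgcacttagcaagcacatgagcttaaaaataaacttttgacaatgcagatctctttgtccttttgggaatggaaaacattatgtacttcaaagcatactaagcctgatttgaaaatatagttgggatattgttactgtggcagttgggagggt
The 200 bases hold 17 CG in KCNH1, 36 in KCND3, 21 in KCNK3, 4 in KCNK10 and 2 in KCNK2. Which start site these cells used, and the methylation of these CG, were not measured. In the RefSeq window of 300 bases (250 before and 50 after the start), the 67 members that matched by symbol have a median of 17 CG. The 35116 promoters of the RefSeq table have a median of 14 and quartiles of 4 and 28.

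Libraries held 116.9 to 140.9 M recovered reads with DMSO. With ATRA and DAC, restored genes alone held 116.8 to 181.2 M. The epithelial label was checked on 8 markers. The keratins KRT8 and KRT18 had means of 87429 and 80345 normalized counts in parental DMSO cells, but CDH1, which encodes E-cadherin, was near 0 in all 3 populations (means of 1.38, 0.915 and 1.07). The 13 neuroendocrine and neuronal markers, of which 7 passed the filter and NEUROD1 had no read, summed to 5974 to 6005 normalized counts in parental, 14731 to 15705 in resistant 1 and 12226 to 14632 in resistant 2 DMSO libraries. The sums of the muscle, immune and endothelial lists were 22.8 to 93.7, 94.6 to 398.8 and 53.3 to 262.2. Of the 7 neuronal markers tested 5 were higher and 1 lower in resistant 1, and 5 were higher in resistant 2. Of all genes 29.3% were higher and 26.6% lower in resistant 1, and 32.1% were higher in resistant 2. NCAM1 made up most of that sum in resistant 1 (a mean of 12240.0, against 2910.2 in parental cells), while CHGA was lower there (-1.09). Of 7 epithelial markers tested 4 were lower in each resistant population, where 26.6% and 29.8% of all genes were. They include EPCAM (-4.33 and -4.28), CLDN7 (-2.78 and -5.05) and, in resistant 1, ESRP1 (-2.97). KRT19 was the 1 marker called higher in resistant 1 (1.14), and it was lower in resistant 2 (-1.49). Summed over the epithelial list, parental DMSO libraries held 223937 to 270242 normalized counts. Resistant 1 libraries lay above that range (300133 to 436446), and resistant 2 libraries lay below it (137295 to 205710). The part of these markers in the differences of channel genes was not tested.

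With DMSO, 52 members passed the filter, which asks for 10 or more normalized counts in 3 or more of 9 libraries. A further 39 were below it, 8 of them with no read. Under ATRA and DAC 73 passed and 18 did not. That table was deposited without its decimal points, and a statistical model restored the values of 55 of the 73 at a posterior probability of 99%. The other 18 have no treated value here, among them KCNA2, KCNC1, KCNE3, KCNG2, KCNG4, KCNH4, KCNH8, KCNJ1, KCNJ3, KCNJ5, KCNJ15, KCNK4, KCNS2, KCNT1, KCNV1 and KCNV2. All 52 members that passed with DMSO also passed under ATRA and DAC, and 21 passed only there. KCNA3, a channel known from T cells and reported whatever its level, had no read with DMSO and 0.868, 5.30 and 6.23 normalized counts in the treated parental libraries.

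Per length, the beta subunit KCNE4, which inhibits several voltage-gated channels, was the most abundant member with DMSO in all 3 populations. Its mean level was 5684 normalized counts per kb of exon in parental, 1888 in resistant 1 and 20909 in resistant 2 cells. The next was KCNK2 in parental cells (1354 per kb), KCNN4 in resistant 1 (1129.6) and KCNG1 in resistant 2 (1103). KCNH1 stood at 0.707 per kb in parental, 861.1 in resistant 1 and 361.8 in resistant 2 cells.

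The first comparison asks which channel genes differed between resistant and parental cells without the drugs. The EAG channel KCNH1 and the large-conductance channel KCNMA1 were near the detection limit or low in parental cells and abundant in resistant 1, and both were also higher in resistant 2. Resistant 2 cells had far higher levels of the inward rectifier KCNJ6 and of KCNQ3, and both resistant populations had less of the background channels KCNK2 and KCNK5. In resistant 1, 21 of 52 members tested were higher and 18 lower than in parental cells, where 29.3% of all 21643 genes tested were higher and 26.6% lower. In resistant 2, 27 were higher and 14 lower, against 32.1% and 29.8% of all genes. The median log2 difference of the members was 0.16 in resistant 1 and 0.84 in resistant 2, beside 0.01 and 0.02 over all genes. Differences between populations are of log2(normalized count + 1) with their SE, tested with limma and adjusted over all genes, and both comparisons share the 3 parental libraries. These are bulk libraries, so fewer cells of a type and less RNA per cell cannot be told apart.

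**Figure D1:**
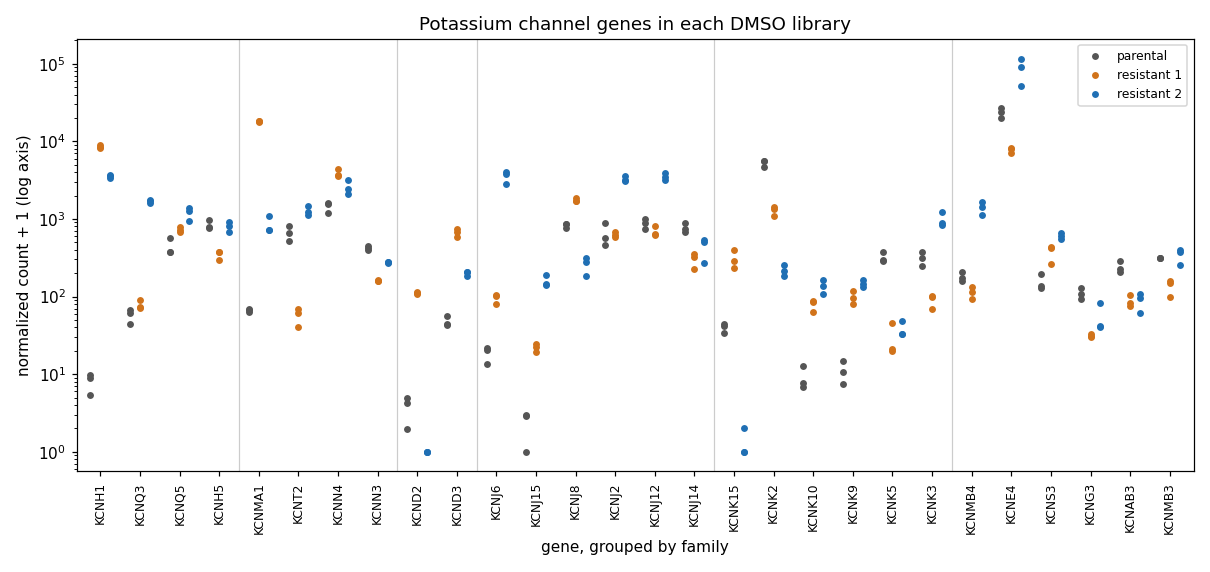
Normalized counts plus 1 (log axis) of 28 potassium channel genes in the 9 DMSO libraries, grouped by family; each point is a library. KCNH1 lies at 4.33 to 8.62 normalized counts in parental cells, 8090.1 to 8905 in resistant 1 and 3377 to 3667 in resistant 2, and KCND2 lies at 0 in resistant 2.

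Among the EAG, ERG and ELK channels, KCNH1 had the largest difference of all members. KCNH1, the founding EAG channel, is normally most abundant in brain and is known for its expression in tumours of other tissues. It had 7.88, 8.62 and 4.33 normalized counts in the parental libraries, 8353, 8905 and 8090.1 in resistant 1 and 3667, 3607 and 3377 in resistant 2. The 3 populations did not overlap. The log2 difference from parental cells was 10.10 ± 0.20 (adjusted p = 6.50e-11) for resistant 1. For resistant 2 it was 8.85 ± 0.20 (adjusted p = 7.67e-11), and resistant 1 exceeded resistant 2 by 1.25 ± 0.20 (adjusted p = 2.88e-04). AC096636.1, which covers 36.9% of the KCNH1 exon bases on the opposite strand, had means of 3.70, 63.7 and 30.7 in the same order. On the same strand AC092017.3 and AL590132.1 cover 20.07% of the KCNH1 exon bases, and their levels are not given here.

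The other members of this family differed less. KCNH5, the second EAG gene, had 753.2, 786.2 and 975.3 normalized counts in parental, 376.8, 368.4 and 297.5 in resistant 1 and 898.7, 811.2 and 669.95 in resistant 2 libraries. It was lower in resistant 1 (-1.27 ± 0.16, adjusted p = 5.60e-05), while the difference of -0.08 ± 0.16 in resistant 2 was not called (adjusted p = 0.692). The ERG channel gene KCNH2, which carries a repolarizing current of the heart, had 49.2, 37.3 and 17.3 in parental, 6.94, 10.01 and 17.4 in resistant 1 and 35.9, 26.6 and 53.2 in resistant 2 libraries. The highest resistant 1 library lay just above the lowest parental one. Its difference of -1.49 ± 0.44 (adjusted p = 0.0137) in resistant 1 lost its call without parental replicate 1 (-1.18, adjusted p = 0.061), parental replicate 2 (-1.37, adjusted p = 0.0514) or resistant 1 replicate 1 (-1.21, adjusted p = 0.0575).

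KCNQ genes encode channels that carry slow non-inactivating currents, and KCNQ1, KCNQ3 and KCNQ5 were higher in resistant 2. KCNQ3, a subunit of the neuronal M-current, had 60.1, 66.1 and 43.3 normalized counts in parental, 89.4, 71.9 and 70.5 in resistant 1 and 1579, 1732 and 1711 in resistant 2 libraries. It was higher in resistant 2 by 4.89 ± 0.19 (adjusted p = 4.30e-09), with no overlap, while the difference of 0.46 ± 0.19 in resistant 1 was not called (adjusted p = 0.0622). KCNQ5, a further M-current subunit, had 379.1, 374.4 and 566.1 in parental, 679.7, 781.5 and 713.7 in resistant 1 and 950.04, 1366 and 1263 in resistant 2 libraries. Both resistant populations were higher, by 0.74 ± 0.19 and 1.45 ± 0.19.

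KCNQ1, which pairs with KCNE subunits in heart and epithelia, was low but differed. It had 11.8, 5.75 and 4.33 normalized counts in parental, 21.7, 29.1 and 18.3 in resistant 1 and 131.5, 66.1 and 102.1 in resistant 2 libraries, higher by 1.61 ± 0.38 and 3.65 ± 0.38. Genes on the opposite strand cover 3.98% of its exon bases, and of these KCNQ1OT1 had means of 1184, 1225 and 1480.5.

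Of the channels opened by calcium or sodium, KCNMA1 differed most. KCNMA1, the pore of the large-conductance BK channel, had 65.97, 62.2 and 67.1 normalized counts in parental, 17757, 18086 and 18335 in resistant 1 and 1076, 723.8 and 713.4 in resistant 2 libraries. The populations were fully apart, with differences from parental cells of 8.09 ± 0.15 (adjusted p = 5.44e-11) for resistant 1 and, for resistant 2, of 3.64 ± 0.15 (adjusted p = 7.50e-09). KCNMB4, a BK beta subunit best known from neurons, followed another order, with 207.8, 171.4 and 159.1 in parental, 92.9, 132.8 and 112.99 in resistant 1 and 1664, 1442 and 1133 in resistant 2 libraries. It was higher in resistant 2 by 2.96 ± 0.20 (adjusted p = 2.24e-07). The lower level in resistant 1 (-0.67 ± 0.20, adjusted p = 0.013) lost its call without parental replicate 1 (-0.56, adjusted p = 0.0548) or resistant 1 replicate 1 (-0.54, adjusted p = 0.0583).

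KCNT2, a sodium-activated channel, separated the resistant populations from each other. It had 517.9, 664.6 and 811.8 normalized counts in parental, 59.9, 68.2 and 39.6 in resistant 1 and 1226, 1447 and 1114 in resistant 2 libraries. This was a difference of -3.56 ± 0.23 for resistant 1 and 0.94 ± 0.23 for resistant 2. KCNN4, the intermediate-conductance channel of epithelial, red and immune cells, had 1600.0, 1571 and 1181, then 3624, 3594 and 4330.4, then 3162, 2084 and 2456 in the 3 populations, and was higher in both resistant ones (1.42 ± 0.17 and 0.82 ± 0.17). KCNN3, a small-conductance channel, had 422.4, 440.5 and 398.3, then 158.00, 161.02 and 156.5, then 281.4, 277.2 and 270.4, and was lower in both (-1.40 ± 0.13 and -0.60 ± 0.13). The BK beta subunit KCNMB3 was lower in resistant 1 (-1.25 ± 0.22), with 315.1, 311.2 and 317.1 normalized counts in parental and 158.9, 148.3 and 96.6 in resistant 1 libraries. PIK3CA, on the opposite strand over 37.9% of its exon bases, had means of 3886, 4647 and 4703. LRRFIP1P1, on the same strand over 9.62% of them, had means of 231.0, 113.6 and 247.9, also lowest in resistant 1. Reads of KCNMB3 may include some of these genes.

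Voltage-gated alpha subunits were few, with 6 of 17 at the filter. KCND2 and KCND3 encode pores of the fast transient A-type current. KCND3 had 42.3, 43.1 and 55.2 normalized counts in parental, 737.9, 673.2 and 589.1 in resistant 1 and 181.8, 205.7 and 205.2 in resistant 2 libraries, and both resistant populations were higher (3.81 ± 0.17 and 2.06 ± 0.17). KCND2 had 3.94, 0.958 and 3.25 in parental and 112.9, 109.2 and 108.2 in resistant 1 libraries, and no read in any resistant 2 library. Against a floor of 3 reads per library, its mean in resistant 1 was at least 34.6-fold higher than in resistant 2. DPP10, an accessory protein of these A-type channels, had means of 4695 ± 594.8 (SD), 487.2 ± 83.2 and 4665 ± 164.4 in the 3 populations, so it was lowest in resistant 1, where both pores were highest.

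Of 7 inward rectifiers tested, 1 was higher and 4 lower in resistant 1 than in resistant 2, where 27.4% and 26.0% of all genes were. Against parental cells 5 were higher and 2 lower in resistant 2, and 4 higher and 1 lower in resistant 1. The shares of all genes were 32.1% and 29.8% in resistant 2 and 29.3% and 26.6% in resistant 1. KCNJ6, a channel gated by G proteins, had 20.7, 12.4 and 19.5 normalized counts in parental, 103.3, 100.1 and 79.2 in resistant 1 and 3998, 3761 and 2847 in resistant 2 libraries. The 3 populations did not overlap, and the differences were 2.38 ± 0.23 (adjusted p = 5.64e-06) for resistant 1 and 7.59 ± 0.23 (adjusted p = 5.76e-10) for resistant 2. KCNJ15, a rectifier of kidney, had the same order, with 1.97, 1.92 and 0, then 21.7, 18.2 and 23.2, then 185.9, 139.6 and 144.4. Reads of KCNJ6 and KCNJ15 may include some of DSCR4 and DSCR8, which overlap them on the same strand and had resistant 1 means of 170.8 and 1021. KCNJ2 and KCNJ12 encode strong rectifiers of the classic inward current. KCNJ2 had 465.7, 562.1 and 888.7 in parental, 618.1, 677.7 and 584.3 in resistant 1 and 3175, 3576 and 3066 in resistant 2 libraries, and only the resistant 2 difference was called (2.41 ± 0.20, against 0.02 ± 0.20 with adjusted p = 0.931 in resistant 1). KCNJ12 had 880.2, 989.2 and 751.2, then 631.1, 611.3 and 808.3, then 3422, 3184 and 3882, with differences of -0.36 ± 0.15 (adjusted p = 0.0611) for resistant 1 and 2.00 ± 0.15 for resistant 2. Its reads cannot be told apart with certainty from those of the near-identical copy KCNJ18.

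KCNJ8, the pore of an ATP-sensitive channel of blood vessels, was higher in resistant 1 and lower in resistant 2, as was its partner. It had 859.6, 768.01 and 871.3 normalized counts in parental, 1860.3, 1722 and 1684 in resistant 1 and 180.8, 276.1 and 317.1 in resistant 2 libraries, with differences of 1.08 ± 0.19 and -1.72 ± 0.19. ABCC9, the sulfonylurea receptor that assembles with KCNJ8, had means of 5450.1 ± 1071 (SD), 11503 ± 234.9 and 1722 ± 85.9, with differences of 1.10 and -1.64. KCNJ14, another inward rectifier, had 679.4, 881.01 and 733.9, then 319.5, 351.2 and 225.99, then 535.1, 502.1 and 268.2. It was lower in resistant 1 (-1.37 ± 0.26), and its difference of -0.87 ± 0.26 in resistant 2 lost its call without parental replicate 2 (-0.76, adjusted p = 0.0575). Genes on the same strand cover 10.85% of the KCNJ14 exon bases. Of these GRWD1 had means of 6099, 3935 and 3362, also lower in both, and reads of KCNJ14 may include some of it.

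Two-pore domain channels differed in both directions, with 4 higher and 4 lower of 9 tested in resistant 1 and 6 and 3 in resistant 2. Of all genes 29.3% were higher and 26.6% lower in resistant 1, and 32.1% and 29.8% in resistant 2. KCNK2, a mechanosensitive channel, had 5589.6, 4645 and 5648 normalized counts in parental, 1438, 1322 and 1085 in resistant 1 and 183.8, 251.6 and 212.8 in resistant 2 libraries. It was lower in both, with differences of -2.05 ± 0.15 and -4.61 ± 0.15 (adjusted p = 1.22e-09) and no overlap. Its close relative KCNK10 was higher in both (3.13 ± 0.29 and 3.93 ± 0.29), with 5.91, 6.70 and 11.9, then 83.3, 85.5 and 61.8, then 136.6, 164.2 and 105.3 normalized counts. KCNK5, an acid-sensitive channel of epithelia, had 291.4, 376.3 and 284.7 in parental, 19.97, 19.1 and 44.4 in resistant 1 and 31.8, 31.98 and 46.7 in resistant 2 libraries. It was lower in both (-3.56 ± 0.32 and -3.08 ± 0.32), and the resistant populations overlapped each other.

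KCNK3, KCNK9 and KCNK15 form the TASK group of acid-sensitive channels, and each had its own order. KCNK3 had 371.2, 314.1 and 245.7 normalized counts in parental, 100.7, 68.2 and 97.5 in resistant 1 and 1224, 841.1 and 877.3 in resistant 2 libraries, with differences of -1.79 ± 0.22 and 1.66 ± 0.22. KCNK9, which can assemble with KCNK3, had 13.8, 9.58 and 6.49, then 115.5, 94.6 and 78.2, then 145.8, 131.1 and 163.96, higher in both (3.19 ± 0.28 and 3.81 ± 0.28). KCNK15, which gives no known current alone, had 43.3, 41.2 and 32.5 in parental and 230.05, 287.5 and 394.03 in resistant 1 libraries, and 1 read over the 3 resistant 2 libraries. Genes on the opposite strand, among them RIMS4 with means of 448.8, 2191 and 543.5, cover 21.7% of its exon bases. KCNK1, reported whatever its values, had 793.6, 706.7 and 637.5, then 360.3, 403.9 and 439.4, then 2642, 2017 and 2086, with differences of -0.83 ± 0.15 and 1.65 ± 0.15. KCNK6, a relative of KCNK1 picked after its values were seen, had 102.4, 69.9 and 70.4, then 261.3, 286.6 and 258.8, then 471.4, 356.04 and 358.3, higher in both.

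Among beta and silent subunits, KCNE4 had 19849.7, 23488 and 26982 normalized counts in parental, 8303, 7986 and 7067 in resistant 1 and 116401, 90598 and 51682 in resistant 2 libraries. The resistant 2 libraries were the most spread but lay above all parental ones, and the differences were -1.58 ± 0.24 and 1.81 ± 0.24. KCNS3, a silent subunit, had 192.98, 128.3 and 136.4, then 417.6, 433.03 and 258.8, then 557.7, 596.96 and 652.6, higher in both (1.26 ± 0.22 and 2.00 ± 0.22). KCNG3, another silent subunit, had 92.6, 105.3 and 127.7, then 29.5, 30.02 and 31.9, then 39.03, 40.5 and 80.4, lower in both (-1.79 ± 0.29 and -1.08 ± 0.29). The cytoplasmic subunits KCNAB3 and KCNAB1 differed in opposite directions. KCNAB3 had 283.6, 207.8 and 225.1, then 104.2, 74.6 and 81.1, then 59.6, 93.8 and 107.5, with differences of -1.45 ± 0.25 and -1.48 ± 0.25. KCNAB1, picked after its values were seen, had 2.95, 2.87 and 4.33, then 51.2, 51.9 and 59.9, then 97.6, 98.1 and 93.4, with differences of 3.67 ± 0.23 and 4.49 ± 0.23. KCNV1, a silent subunit picked in the same way, had 71.9, 67.99 and 68.2 in parental and at most 2.13 in the 6 resistant libraries.

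**Figure D2:**
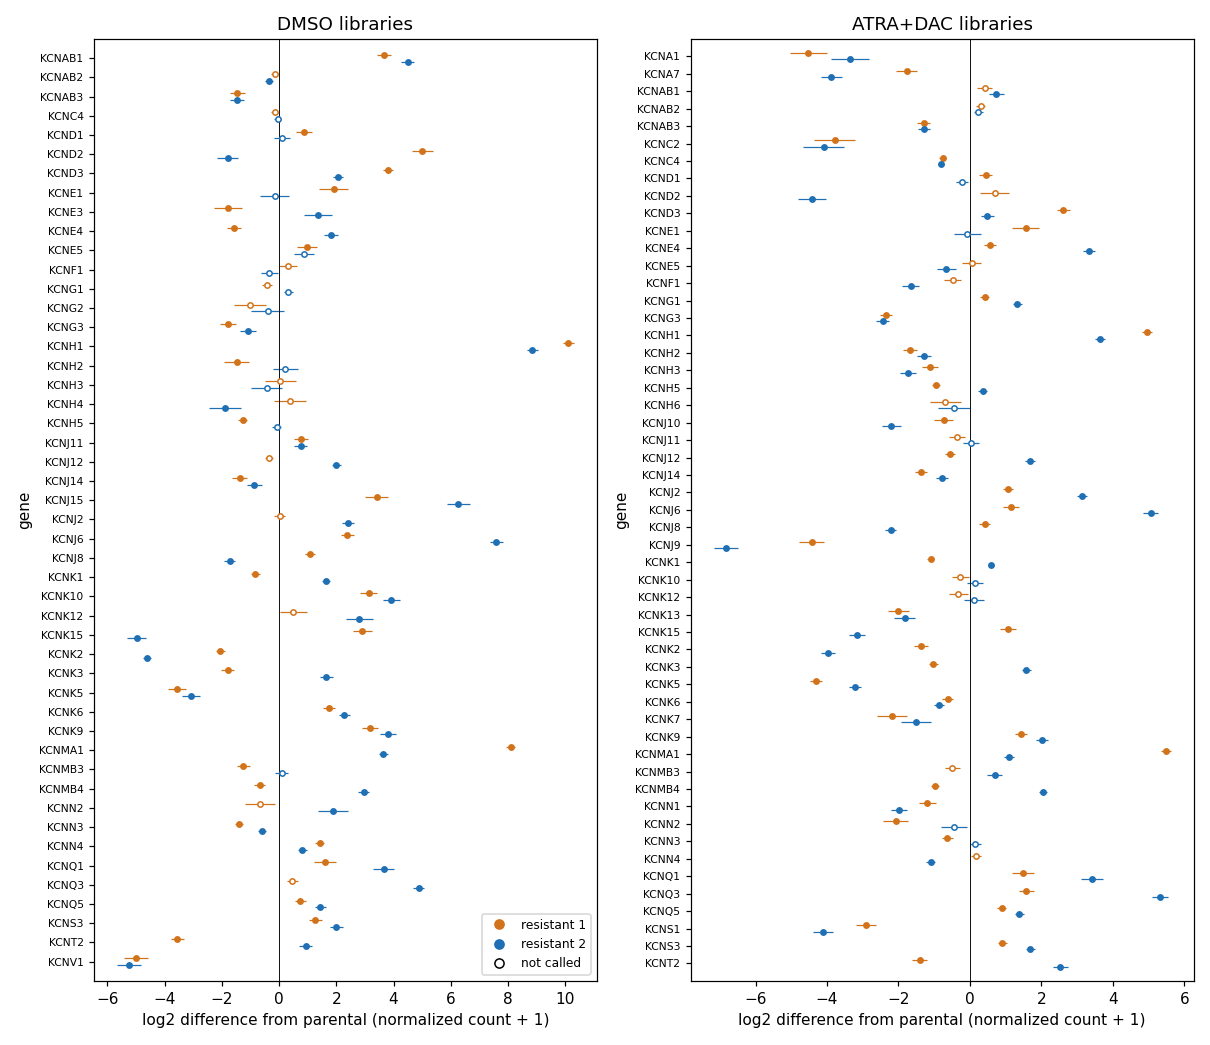
Log2 differences from parental cells (normalized count + 1) of potassium channel genes, with DMSO on the left (48 of 52 tested) and with ATRA and DAC on the right (53 of 55 tested); bars are SE, and open points have an adjusted p of 0.05 or more. KCNH1 (10.10 with DMSO, 4.95 with ATRA and DAC) and KCNMA1 (8.09 and 5.48) lie far to the right in resistant 1, and KCNK2 in resistant 2 (-4.61 and -3.99) lies far to the left.

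The resistant populations were also compared with each other. With DMSO 13 members were higher and 26 lower in resistant 1 than in resistant 2, where 27.4% and 26.0% of all genes were. The differences of KCNK15 (7.88 ± 0.34) and KCND2 (6.79 ± 0.37) were the largest in the first direction. In the other they were those of KCNJ6 (-5.21 ± 0.23), KCNT2 (-4.50 ± 0.23) and KCNQ3 (-4.43 ± 0.19). By family, 4 of 7 inward rectifiers and 5 of 9 two-pore channels tested were lower in resistant 1, and 4 of 6 voltage-gated alpha subunits were higher.

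The same comparisons were made within the ATRA and DAC table. KCNH1 and KCNMA1 were again higher in both resistant populations, by less than with DMSO, and KCNQ3 and KCNJ6 were again highest in resistant 2. In resistant 1, 16 of 55 members were higher and 28 lower than in parental cells, against 34.1% and 32.2% of 21292 genes. In resistant 2, 20 were higher and 25 lower, against 37.1% and 34.3%. Of these members 10 passed the filter only with treatment, so the counts were also taken over the 45 that pass with DMSO. In resistant 1, 16 of these were higher and 19 lower, against 36.6% and 28.8% of 19547 such genes, with a median log2 difference of -0.32 beside 0.08. In resistant 2, 20 were higher and 16 lower, against 39.9% and 30.4%, with a median of 0.14 beside 0.11. Between the resistant populations 14 of the 45 were higher and 21 lower in resistant 1, where 27.8% and 30.1% of such genes were.

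KCNH1 had 240.4, 179.2 and 186.8 normalized counts in treated parental, 6921, 5978 and 5796 in resistant 1 and 2769, 2648 and 2123 in resistant 2 libraries, still without overlap (4.95 ± 0.14 and 3.63 ± 0.14). Its treated values, and those of KCNK2 and KCNK15, reached the posterior of 99% only when the model used the population differences seen with DMSO, so they are not independent of those. KCNMA1, restored without that information, had 360.2, 321.4 and 266.3, then 14966, 13039 and 14312, then 729.7, 571.03 and 726.7, with differences of 5.48 ± 0.13 and 1.10 ± 0.13. KCNQ3 and KCNJ6 in resistant 2 had 1729, 1493 and 1294 and 4509.9, 3753 and 2443 normalized counts there against 30.4, 33.6 and 47.5 and 118.9, 99.8 and 91.9 in parental libraries. KCNK5 was again lower in both, with 1323, 1367 and 1356, then 58.3, 77.96 and 66.6, then 136.9, 122.03 and 178.3 (-4.31 ± 0.17 and -3.22 ± 0.17).

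Members below the filter with DMSO that were tested with ATRA and DAC reached it there in all 3 parental libraries, and KCNS1, KCNK13 and KCNN1 in all 9. They were picked for high treated parental levels, so they are given as levels only, with no test. KCNJ9, a partner of KCNJ6 in channels gated by G proteins, had 158.8, 143.9 and 131.6 normalized counts in treated parental, 4.40, 5.57 and 7.65 in resistant 1 and 0, 0 and 1.11 in resistant 2 libraries. KCNS1, a silent subunit, had 427.9, 397.3 and 400.2, then 48.4, 69.1 and 45.1, then 13.3, 28.8 and 30.1. KCNA7, a voltage-gated channel, had 91.1, 124.5 and 108.99, then 29.7, 40.1 and 24.5, then 3.99, 8.06 and 7.80. The two-pore channel KCNK13 had 122.4, 94.5 and 139.4, then 19.8, 43.4 and 26.8, then 26.6, 37.99 and 33.4, and the small-conductance channel KCNN1 176.2, 138.6 and 112.1, then 52.8, 69.1 and 60.5, then 26.6, 35.7 and 43.5.

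KCNE4 had the highest treated levels of the members with a restored value in resistant 2, with 7166, 7306 and 9491 normalized counts in parental, 13752, 11090.4 and 10372 in resistant 1 and 91786, 92269 and 61384 in resistant 2 libraries. Both resistant populations were above the parental one (0.56 ± 0.17 and 3.34 ± 0.17), although with DMSO resistant 1 was below it. The resistant 1 call was lost without resistant 1 replicate 1 (0.44, adjusted p = 0.052). KCNT2 had 261.2, 382.3 and 355.00, then 136.3, 148.1 and 94.1, then 1778, 2397 and 1633, and KCNMB4 435.7, 412.3 and 412.6, then 212.1, 213.8 and 215.02, then 1857, 1726 and 1651. Both were lower in resistant 1 and higher in resistant 2, the order seen with DMSO.

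Further members named by level and size had these treated levels. The silent subunit KCNS3 had 315.04, 366.4 and 355.00 normalized counts in parental, 625.4, 735.1 and 595.3 in resistant 1 and 955.7, 1243 and 1179 in resistant 2 libraries, and was higher in both. KCNJ12 had 2457, 2159.7 and 2165, then 1394, 1566 and 1667, then 9024, 6331 and 6681, and KCNJ14 962.5, 996.8 and 943.6, then 396.8, 386.5 and 340.5, then 622.1, 698.8 and 420.2. KCNK9 had 52.1, 53.9 and 41.3, then 126.4, 139.2 and 135.4, then 208.7, 201.5 and 192.8. For these 3 genes the 3 populations did not overlap. KCNK15 had 1079.7, 842.3 and 963.8, then 1662, 2000.2 and 2426, then 86.4, 86.3 and 157.2, highest in resistant 1 as with DMSO.

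The ELK channel KCNH3 had 399.2, 378.8 and 353.4 normalized counts in treated parental, 130.8, 192.7 and 203.5 in resistant 1 and 112.98, 82.9 and 152.7 in resistant 2 libraries (-1.12 ± 0.23 and -1.73 ± 0.23). KCNH2 had 270.8, 213.7 and 251.5, then 62.6, 71.3 and 97.2, then 107.7, 95.6 and 95.9 (-1.68 ± 0.19 and -1.29 ± 0.19), so that parental and resistant libraries no longer touched. KCNF1, a silent subunit, was lower in resistant 2 (-1.65 ± 0.24), with 837.5, 482.1 and 521.6 in parental and 194.1, 147.4 and 234.1 in resistant 2 libraries. KCNQ1 had 15.6, 12.4 and 7.79, then 36.3, 31.2 and 34.4, then 204.7, 103.6 and 107.00 (1.48 ± 0.31 and 3.41 ± 0.31), the same order as with DMSO.

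The response to ATRA and DAC was tested within each population on the recovered reads of all 18 libraries, as log2(CPM + 1), where CPM is the count per M reads of the library. In parental cells 29 of the 45 channel genes that pass with DMSO and were tested rose, among them background channels, voltage-gated channels and KCNN4, while KCNE4, KCNK2 and KCNG1 fell. In numbers, 41 of 57 members tested rose and 8 fell, where 35.5% of all 21806 genes rose and 28.5% fell. Members that passed only through a high treated group had to rise, so counts are read over the 45 that also pass with DMSO. Of these 29 rose and 8 fell, where 31.0% of 19656 such genes rose and 31.5% fell. Their median log2 change was 0.47, beside -0.01 over those genes. The change of members under a few CPM is strongly understated on this scale, so CPM values are given beside it. As above, the treated values of KCNH1, KCNK2 and KCNK15 were restored only with use of the DMSO population differences.

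**Figure D3:**
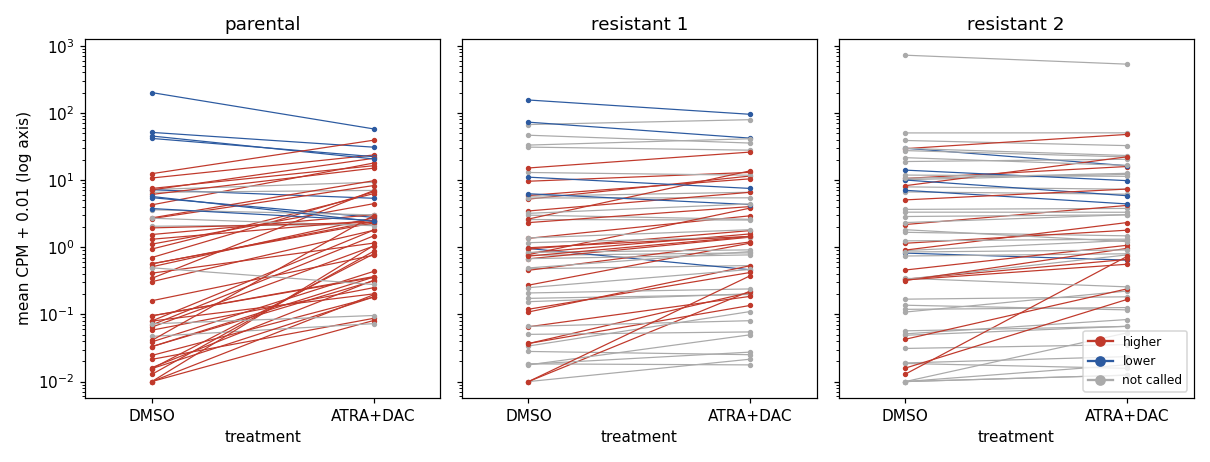
Mean CPM plus 0.01 (log axis) of 57 potassium channel genes with DMSO and with ATRA and DAC in each population; each line is a gene and its colour is the call of the test. In parental cells 41 lines are called higher and 8 lower, in resistant 1 cells 23 and 5, and in resistant 2 cells 14 and 5.

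Of the 9 two-pore channels that pass with DMSO and were tested, 8 rose in parental cells and 1 fell. KCNK6 went from 0.87, 0.612 and 0.595 to 7.28, 6.40 and 6.27 CPM, a mean 9.61-fold higher, and its change was 2.18 ± 0.12 (adjusted p = 7.71e-11). KCNK15 went from 0.368, 0.361 and 0.275 to 7.78, 6.14 and 6.97 CPM. KCNK5 went from a mean of 2.73 ± 0.494 (SD) to 9.77 ± 0.221 CPM, and KCNK10 from 0.0698 ± 0.027 to 1.79 ± 0.332. In each of these 4 genes every treated library was above every DMSO library. The mechanosensitive KCNK2 fell, from 47.5, 40.7 and 47.8 to 22.8, 19.5 and 19.7 CPM (-1.10 ± 0.14, adjusted p = 2.76e-06).

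Of such voltage-gated alpha subunits 4 of 5 rose in parental cells and none fell, and of 4 silent subunits 3 rose and 1 fell. KCND3 went from 0.36, 0.377 and 0.467 to 1.18, 1.05 and 1.19 CPM (0.61 ± 0.10, adjusted p = 7.72e-05). KCNG3 went from 0.929 ± 0.147 (SD) to 6.26 ± 0.389 CPM. KCNS1, which passed the filter only through treated libraries, was at 0.031 ± 0.0206 and 2.96 ± 0.108 CPM. Of 4 EAG, ERG and ELK channels that pass with DMSO 3 rose, among them KCNH2, from 0.297 ± 0.138 to 1.78 ± 0.2 CPM. KCNN4 rose from 13.6, 13.8 and 9.98 to 45.5, 36.2 and 35.9 CPM (1.59 ± 0.16, adjusted p = 1.82e-07). Of 6 such inward rectifiers 4 rose and 1 fell. KCNJ8 rose from 7.13 ± 0.353 to 21.1 ± 0.876 CPM, and KCNJ9, also at the filter only through treated libraries, had no read in parental DMSO cells and 1.05 ± 0.0963 CPM with treatment.

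Against this direction, KCNE4 fell in parental cells from 168.6, 205.6 and 228.1 to 51.6, 53.3 and 68.6 CPM (-1.78 ± 0.23, adjusted p = 3.69e-06), with no overlap. The others that fell there were KCNK2, KCNT2, KCNG1, KCNJ2, KCNAB2, KCNQ5 and KCNH5. KCNT2 fell from 4.40, 5.82 and 6.86 to 1.88, 2.79 and 2.57 CPM and KCNG1, a silent subunit, from 40.3, 52.97 and 31.8 to 25.1, 20.4 and 21.5. KCNJ2 fell from 3.96, 4.92 and 7.51 to 2.45, 2.58 and 3.30 CPM. The fall of KCNH5 (-0.36 ± 0.11) lost its call without parental DMSO replicate 3 (-0.26, adjusted p = 0.0748) or parental ATRA and DAC replicate 1 (-0.31, adjusted p = 0.0542). KCNE4, KCNK2 and KCNG1 were the most abundant members per length in untreated parental cells.

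Of the members that rose in parental cells, 28 of 41 matched a RefSeq promoter, with a median of 30 CG per 300 bases and a range of 3 to 54. Of the 8 that fell 6 matched, with a median of 27.5, and of the 8 not called 5 matched, with a median of 7. Among the promoters shown above, KCNK10 rose with 4 CG in its 200 bases and KCND3 rose with 36. These counts are a description. Of the 41 only 29 pass with DMSO and the others entered through treated libraries, so the medians are not set against each other.

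Markers moved with the response in parental cells. Of the 8 epithelial markers 7 rose and 1 fell with a median of 2.43, where 35.5% of all genes rose and 28.5% fell. These counts and the median include CDH1, so they are a description only. CDH1 was at the filter only through treated libraries, so it had to rise and is given by its level. It had 1403 ± 14.8 (SD) normalized counts in treated parental cells, against 61.2 ± 7.96 in resistant 1 and 42.2 ± 13.4 in resistant 2. Of the neuroendocrine and neuronal markers 4 of 7 tested rose and 2 fell, with a median of 1.47. Their part in the response of channel genes was not tested.

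Fewer members passed the test in the resistant populations, as did fewer of all genes. In resistant 1 cells 23 rose and 5 fell, where 14.7% of all genes rose and 13.5% fell, and in resistant 2 cells 14 rose and 5 fell, where 9.73% rose and 8.92% fell. Among the 45 members that pass with DMSO, 18 rose and 5 fell in resistant 1 (13.5% and 14.9% of such genes) and 12 rose and 5 fell in resistant 2 (9.72% and 9.87%). When DMSO and treated libraries of a population were paired by replicate number, 12 fell in resistant 2. The share of all genes in that paired fit is not given here, so this count is not read as a result about the members.

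KCNK3 rose in all 3 populations. It went from 3.15, 2.75 and 2.08 to 8.65, 8.54 and 7.64 CPM in parental cells. In resistant 1 it went from 0.87, 0.586 and 0.843 to 3.38, 3.56 and 4.53, and in resistant 2 from 10.3, 7.05 and 7.39 to 24.3, 20.4 and 21.8. The changes were 1.35 ± 0.14, 1.45 ± 0.14 and 1.34 ± 0.14, and the responses of the resistant populations differed from the parental one by 0.09 ± 0.20 (adjusted p = 0.747) and -0.01 ± 0.20 (adjusted p = 0.974). KCNJ8, KCNJ12 and KCNG3 were among the other members called higher in each population. The mean of KCNK15 also went up in each, from 0.334 to 6.96, from 2.62 to 13.7 and from 0.00287 to 0.719 CPM. KCNQ5 was called lower in each (-0.44 ± 0.14, -0.45 ± 0.14 and -0.68 ± 0.14). Its call ended in parental cells without DMSO replicate 3 (-0.28, adjusted p = 0.0839). In resistant 1 it ended without DMSO replicate 2 (-0.40, adjusted p = 0.0801) or without treated replicate 2 (-0.45, adjusted p = 0.0652) or 3 (-0.44, adjusted p = 0.062).

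KCNH1 and KCNMA1 rose in parental cells and fell in both resistant populations. KCNH1 went from 0.0669, 0.0755 and 0.0366 to 1.73, 1.31 and 1.35 CPM in parental cells. In resistant 1 it went from 72.2, 76.4 and 69.9 to 46.3, 40.7 and 39.3, and in resistant 2 from 30.7, 30.2 and 28.5 to 17.95, 17.1 and 14.03. The ratio of treated to untreated means was 24.5 in parental, 0.578 in resistant 1 and 0.549 in resistant 2 cells. KCNMA1 went from 0.56, 0.545 and 0.567 to 2.59, 2.34 and 1.93 CPM in parental cells, in resistant 1 from 153.4, 155.2 and 158.4 to 100.2, 88.8 and 97.04, and in resistant 2 from 9.03, 6.07 and 6.01 to 4.73, 3.69 and 4.80. Treated and untreated libraries did not overlap in any population for either gene. Treated parental libraries stayed below untreated resistant libraries for both.

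**Figure D4:**
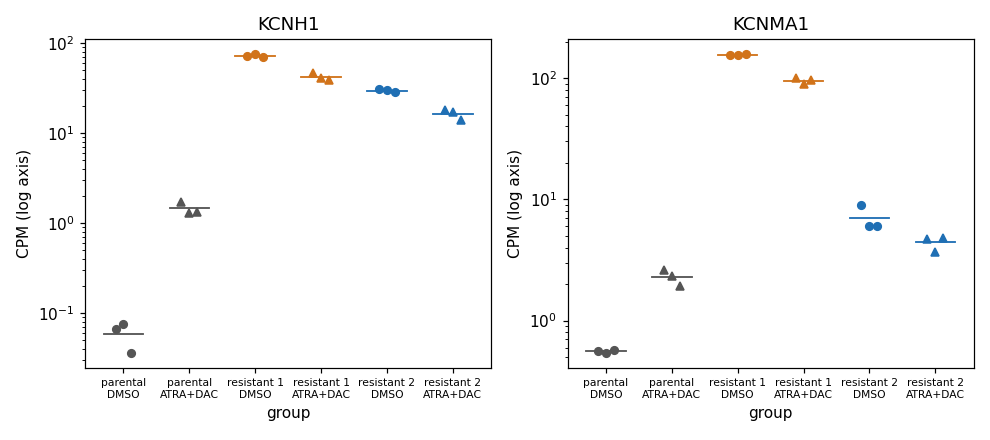
CPM (log axis) of KCNH1 and KCNMA1 in each of the 18 libraries; circles are DMSO, triangles ATRA and DAC, and lines the mean of 3 libraries. Parental means rise to 1.46 CPM of KCNH1 and 2.29 CPM of KCNMA1, and the means of both resistant populations fall, to 42.1 and 16.4 CPM of KCNH1 and 95.3 and 4.41 CPM of KCNMA1. The treated values of KCNH1 were restored only with use of the DMSO population differences.

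The responses themselves were then compared, as the response in a resistant population minus that in parental cells, with the parental libraries shared by both comparisons. KCNH1, KCNMA1, KCNN4 and KCNK6 responded lower in the resistant populations, and KCNE4, KCNT2 and KCNG1 higher. In resistant 1 cells 7 members responded higher and 31 lower, where 16.8% and 25.9% of all genes did. In resistant 2 cells the counts were 5 and 36, where 19.6% and 28.8% of all genes did. Members that entered only through high treated parental libraries tend to respond lower in resistant cells by that choice. Counts are therefore read over the 45 members that pass with DMSO. Of these, 7 responded higher and 20 lower in resistant 1 (18.5% and 21.9% of such genes) and 5 and 24 in resistant 2 (21.6% and 24.6%). Without parental ATRA and DAC replicate 2, or without replicate 3, the count that responded higher in resistant 1 was 4. With the replicate pairing, 9 responded higher in resistant 2, again without a share of all genes to set beside it.

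For KCNH1 the difference of responses was -1.99 ± 0.14 in resistant 1 and -2.05 ± 0.14 in resistant 2, and for KCNMA1 -1.78 ± 0.18 and -1.63 ± 0.18 (adjusted p = 1.49e-06 was the highest of the 4). KCNN4 had -1.28 ± 0.22 and -1.94 ± 0.22, and KCNK6 -1.58 ± 0.17 and -2.18 ± 0.17. KCNE4 had 2.01 ± 0.32 and 1.39 ± 0.32 in the other direction, KCNT2 1.29 ± 0.23 and 1.19 ± 0.23, and KCNG1 0.70 ± 0.23 and 0.85 ± 0.23. These 3 genes fell in parental cells. KCNN3 was also higher in both (0.45 ± 0.13 and 0.47 ± 0.13), KCNJ2 in resistant 1 (0.75 ± 0.22). KCNK2 was called higher in both (0.60 ± 0.19 and 0.73 ± 0.19), but edgeR's quasi-likelihood test on reads gave 0.57 and 0.55 without a call (adjusted p = 0.0666 and adjusted p = 0.0937). Its resistant 1 call was also lost when any of 5 single libraries was left out, with a lowest value of 0.48 without resistant 1 DMSO replicate 3.

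For 3 members near 0 in a group, the sign of this difference depended on the scale. KCNK15 in resistant 2 went from 1 read to 0.719 ± 0.277 CPM (SD). Its difference from the parental response was -1.81 ± 0.21 (adjusted p = 2.71e-06) on the log2(CPM + 1) scale, whereas edgeR gave 3.16 (adjusted p = 0.0194). KCNS1 and KCNA7 in resistant 1 also changed sign between limma and edgeR. They were at the filter only through treated libraries, so their difference of responses is not read as a result. KCNK5 and KCNG3 in resistant 1 kept their sign with edgeR (-0.90 and -0.63) but not the call (adjusted p = 0.0548 and adjusted p = 0.151). KCNK5 in resistant 2, at -0.97 ± 0.14 by limma, was at -0.22 by edgeR (adjusted p = 0.665). Over all members edgeR called 8 higher and 22 lower in resistant 1 and 6 and 24 in resistant 2. The shares of all genes with edgeR are not given here.

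Genes that work with these channels were counted beside them. Of 21 accessory proteins outside the rule 13 were tested with DMSO, with 5 higher and 3 lower in resistant 1 and 2 and 5 in resistant 2. Of 23 potassium pumps and cotransporters 17 were tested, with 9 higher and 2 lower in resistant 1 and 11 and 2 in resistant 2, at medians of 0.70 and 0.74. Of 34 sodium, calcium and other cation channels 31 were tested, with 12 higher and 9 lower in resistant 1 and 19 and 7 in resistant 2. The sodium channel SCN8A had means of 79.4 ± 7.29 (SD), 2991 ± 247.8 and 1079 ± 152.8, while SCN3A, another sodium channel, had 212.3 ± 36.3, 2.83 ± 2.61 and 5.04 ± 6.92. In the parental response 17 of 25 tested cation channels rose and 3 fell, and of 16 pumps and cotransporters 10 rose and 2 fell. The shares of all genes given for each comparison are the ones to set beside these counts.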

How the data were processed

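RNA of 18 libraries was sequenced after a stranded mRNA preparation, per the labels' protocols. The submitters' processing notes name STAR, featureCounts, DESeq2 and the GRCh38 build. Neither tool versions nor the strand setting of counting is stated in the labels or files, so reads of genes that overlap on opposite strands may not be kept apart. The authors deposited 1 table per treatment, normalized separately. The deposited DMSO table holds normalized counts, a signal. Whole reads were recovered from its steps, and 100% of its values came out whole within 0.01. The deposited ATRA and DAC table holds the same kind of value with its decimal points lost, an other unit. They were restored per gene by the powers of 10 that give likely whole reads in 9 libraries, averaging models without and with the DMSO population differences. Of 25198 genes at the filter 21292 (84.5%) were restored, 54.3% at means under 30 and 98.7% from 1000. With the decimals removed from the DMSO table, 28 of 18541 resolved genes had a wrong value.

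Differences between populations were tested within a table with limma 3.58.1 (trend, R 4.3.3) on log2(normalized count + 1). Responses were tested on log2(CPM + 1), scaled over 18 libraries by TMM (edgeR 4.0.16). P-values were adjusted by Benjamini-Hochberg over all genes and called under 0.05. edgeR's quasi-likelihood test and DESeq2 1.42.0 on recovered reads were alternatives, as in the closing section. The steps were tested on simulated data. Replicate numbers did not pair parental with resistant libraries. Deviations of same-numbered resistant 1 and resistant 2 DMSO libraries correlated at 0.0855, 0.264 and 0.376 within their table, where the first is under the 0.1 set for pairing, but at 0.164, 0.627 and 0.581 as log2(CPM + 1), so a fit of these 2 populations with the replicate number as a block was added after seeing the data. Between DMSO and treated libraries of a population, deviations of same-numbered libraries correlated at 0.73, 0.39 and 0.87 in resistant 1 and 0.75, 0.79 and 0.86 in resistant 2, but at 0.47, -0.26 and 0.34 in parental cells, so a fit with such pairs was added after seeing the data. The labels call replicates biological without naming separate cultures, so p-values measure the spread between these libraries.

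Genes were named by GENCODE 29. The members, lists and tests were chosen with earlier results of these data known. Values in every library, for 1 or both treatments, were given for members with a mean of at least 100 normalized counts in a group and a called difference of at least 1 on the log2 scale, at most 6 per family by size, and for 8 fixed genes. Others are given by counts, or are said to be outside this rule. No test was made over the list as a whole. A few members and list genes are counted but not reported here by name or drawn in labelled plots.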

Additional observations from a re-analysis of the deposited data

Results flagged for a closer look

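The responses to ATRA and DAC differed between populations by the limma test of the difference of responses. In resistant 1 cells 7 members responded higher and 31 lower than in parental cells, where 16.8% and 25.9% of all genes did. In resistant 2 cells 5 and 36 did, against 19.6% and 28.8%. These counts include members that entered only through high treated parental libraries and so tend to respond lower in resistant cells. They are therefore read over the 45 members that pass with DMSO. Over those the counts were 7 and 20 in resistant 1, against 18.5% and 21.9% of such genes. In resistant 2 they were 5 and 24, against 21.6% and 24.6%. With edgeR 8 of all members were called higher and 22 lower in resistant 1, and 6 and 24 in resistant 2. The shares of all genes with edgeR are not given here. KCNH1 was higher in all treated parental libraries and lower in all treated resistant ones, with differences of responses of -1.99 in resistant 1 and -2.05 in resistant 2 on the log2(CPM + 1) scale. KCNMA1 had the same signs, with -1.78 and -1.63. KCND2 rose in parental cells, from 0.0231 ± 0.0131 (SD) to 0.306 ± 0.0848 CPM, and fell in resistant 1, from 0.949 ± 0.0228 to 0.453 ± 0.0228 CPM, a difference of -0.77.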

How the results depend on the processing

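Over 326 results of named genes, 6762 of 6956 refits kept direction and call, 188 lost the call and 6 changed sign: the difference of responses of KCNS1 (2.10 with edgeR, 1.44 with DESeq2) and KCNA7 (0.94 and 0.11) in resistant 1 and of KCNK15 (3.16 and 3.44) in resistant 2, all near 0 in a group. KCNS1 and KCNA7 were at the filter only through treated libraries, so their values are not read as results. The stricter posterior tests fewer members (37 within ATRA and DAC, 38 for responses). It gave 15 lower in resistant 2 than in parental cells and 10 higher in resistant 1 than in resistant 2 under ATRA and DAC, 25 that rose in parental cells, 2 and 1 that fell in resistant 1 and resistant 2, and differences of responses of 4 higher and 18 lower in resistant 1 and 3 and 20 in resistant 2. Restoration without the DMSO differences gave 3 that fell in resistant 1, a setting chosen after seeing the data. Leaving out each library moved the count that responded higher in resistant 1 between 4 and 7.

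The replicate block over all groups gave, with DMSO, 20 higher and 18 lower in resistant 1 and 26 and 13 in resistant 2, and moved no count of members by over 1.5 times. It ended the call of KCNK10 between the resistant populations with DMSO (-0.80, adjusted p = 0.064). In a block fit of the 2 resistant populations alone with DMSO, 13 members were higher and 28 lower in resistant 1, and no named gene lost its call. The added block within populations gave 12 that fell in resistant 2 and 9 that responded higher there, and moved no other count by over 1.5 times. The shares of all genes in that fit are not given here. Lowly expressed members are limited by the restoration, which left 18 without a treated value.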
